A study of Mus musculus with 6 samples.

Results

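The Ikaros family and the BCL11 factors are zinc finger transcription factors of blood cells, and 7 of the 16440 genes in the deposited table were chosen by name as their members: Ikzf1, Ikzf2, Ikzf3, Ikzf4, Ikzf5, Bcl11a and Bcl11b. All 7 were found in the table. RNA sequencing compared them between 3 libraries of normal myeloid progenitors (MPs) and 3 libraries of c-Kit+ acute promyelocytic leukemia (APL) progenitors, both from FVB N/J mice, with no treatment named for either. The normal MPs were bone marrow (BM) cells sorted as Lin-Sca-1-c-Kit+, a gate that takes in granulocytic, monocytic, megakaryocytic and erythroid precursors together. The APL cells descended from hMRP8-PML/RARα transgenic mice, in which the human MRP8 promoter drives the fusion gene in myeloid cells. They had been marked with GFP by the retroviral vector MigR1, grown in syngeneic recipients by transplantation, and sorted as GFP+ c-Kit+ cells. The labels name neither the transgene nor the vector for the normal MPs. The number of separate leukemias behind the 3 APL libraries and the ages of the mice behind each library are not given in the sources used here, although the methods state an age range for transplant recipients in general. So n counts libraries, and p-values measure the spread between these libraries, which may be technical.

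Ikaros (Ikzf1), Helios (Ikzf2), Aiolos (Ikzf3), Eos (Ikzf4) and Pegasus (Ikzf5) share C-terminal zinc fingers through which they pair with one another, and all but Pegasus share N-terminal fingers that bind DNA around a GGGAA core. Ikaros and its relatives work largely through chromatin complexes, above all the NuRD remodelling and deacetylase complex, and Ikaros is required for lymphoid development and is lost or mutated in lymphoid leukemia. BCL11A is needed for B cells and dendritic cells and silences fetal globin in red cells, whereas BCL11B is a factor of T cell commitment. BCL11A binds TGACCA, and both proteins associate with the BAF and NuRD complexes.

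The sequences before 3 starts are shown because Ikzf1 and Bcl11a were both lower in the APL libraries by similar folds while Ikzf5 was not called. RefSeq entries on GRCm38.p6 matched 4 of the 7 members with 5 start sites, of which Ikzf1 had 2. The 250 bases before the second Ikzf1 start (chr11:11689927-11690176, plus strand, inside the Ikzf1 locus of the table), before the Bcl11a start (chr11:24080445-24080694, plus strand) and before the Ikzf5 start (chr7:131410479-131410728, minus strand) are shown 5′ to 3′. Capitals mark every match, on either strand, to the Ikaros core TGGGAA or to the ETS motif AGGAAG, and no matches overlapped.
Ikzf1, second start: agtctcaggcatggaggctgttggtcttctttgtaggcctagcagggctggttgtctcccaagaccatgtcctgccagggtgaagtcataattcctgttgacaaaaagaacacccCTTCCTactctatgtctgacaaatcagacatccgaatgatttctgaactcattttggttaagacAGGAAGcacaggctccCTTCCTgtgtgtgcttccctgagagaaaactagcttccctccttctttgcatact
Bcl11a: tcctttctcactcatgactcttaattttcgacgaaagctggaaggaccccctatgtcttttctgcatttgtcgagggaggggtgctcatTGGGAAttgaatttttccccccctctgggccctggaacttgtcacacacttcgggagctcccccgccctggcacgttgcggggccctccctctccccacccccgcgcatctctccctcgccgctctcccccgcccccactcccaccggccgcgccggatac
Ikzf5: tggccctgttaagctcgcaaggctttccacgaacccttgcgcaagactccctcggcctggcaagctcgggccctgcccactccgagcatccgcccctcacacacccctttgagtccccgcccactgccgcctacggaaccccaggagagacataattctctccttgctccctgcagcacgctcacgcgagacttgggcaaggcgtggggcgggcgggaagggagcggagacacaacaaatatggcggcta
The Ikzf1 stretch held AGGAAG 3 times, beginning 135, 71 and 55 bases before the start, and the Bcl11a stretch held TGGGAA once, beginning 161 bases before it. The Ikzf5 stretch held neither. Nor did the stretch before the Bcl11b start, which is not shown, although Bcl11b passed the thresholds as lower. Among 32851 RefSeq stretches of the same length, 29.5% held AGGAAG and 21.6% held TGGGAA. The BCL11 motif TGACCA (11.4% of stretches), the nuclear receptor half-site AGGTCA (14.0%) and the GATA motif AGATAA (9.99%) were searched on both strands as well and had no match before any of the 5 starts. The stretch before the first Ikzf1 start is not shown. It was 82% G or C against a median of 52.4% over all stretches, and had no match to any of the 5 motifs. These are matches of letters and not measured binding sites.

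Values are given on 2 scales. FPKM corrects for the length of a transcript and for how many fragments a library mapped, and is the scale on which different genes can be compared. Scaled fragments are the estimated fragments of a gene after multiplication by a factor of each library, and are the scale of the test, which was limma on log2(scaled fragments + 1) across the 14595 genes that reached 1 scaled fragment in 3 or more libraries. A gene was called at a Benjamini-Hochberg adjusted p under 0.05 with a fold change over 1.5. Total unscaled fragments lay between 22976905 and 26932327 in the normal MPs and between 20608715 and 28382785 in the c-Kit+ APL progenitors. No other gene of the table overlapped the locus of a member.

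Of the 7 members, Ikzf1, Ikzf2, Ikzf3 and Bcl11a were downregulated in the c-Kit+ APL progenitors, none was upregulated, and Ikzf4 and Ikzf5 were not called. Bcl11b also passed the thresholds, which makes 5 called lower, but it entered the test only through the normal MPs and so had to differ, and its call is no support. Over all genes tested, 24.4% were called lower and 21.7% higher. MP and APL libraries were fully apart for these 5 members, and for 70.9% of all genes tested, so separation of the libraries by itself did not set the members apart. All 7 members passed the filter on low values. Ikzf1 and Bcl11a changed by less than 2-fold and were not called at a fold change over 2. These are bulk libraries, in which fewer cells expressing a gene and less of its RNA per cell cannot be told apart.

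In normal MPs the members formed a steep order by FPKM. Ikzf1 stood first at 61.3 ± 1.67 FPKM (SD, n = 3), higher than 92.5% of the genes in the table, followed by Bcl11a at 38.5 ± 1.92, Ikzf5 at 9.87 ± 0.606 and Ikzf2 at 3.44 ± 0.50, with no overlap between neighbours. Ikzf3, Ikzf4 and Bcl11b stood at 0.160 ± 0.0699, 0.0509 ± 0.0429 and 0.0276 ± 0.00727 FPKM, and neighbours among these 3 overlapped. In c-Kit+ APL progenitors Ikzf1 (34.7 ± 1.69 FPKM), Bcl11a (17.2 ± 0.913) and Ikzf5 (10.4 ± 0.270) kept the first 3 places without overlap. Ikzf4, Ikzf2 and Ikzf3 followed at 0.104 ± 0.0464, 0.0426 ± 0.0237 and 0.0343 ± 0.0211 FPKM with overlapping neighbours, and Bcl11b was listed at 0. Ikzf2 thus went from a level higher than that of 45.3% of genes to one higher than that of 19.99%.

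**Figure D1:**
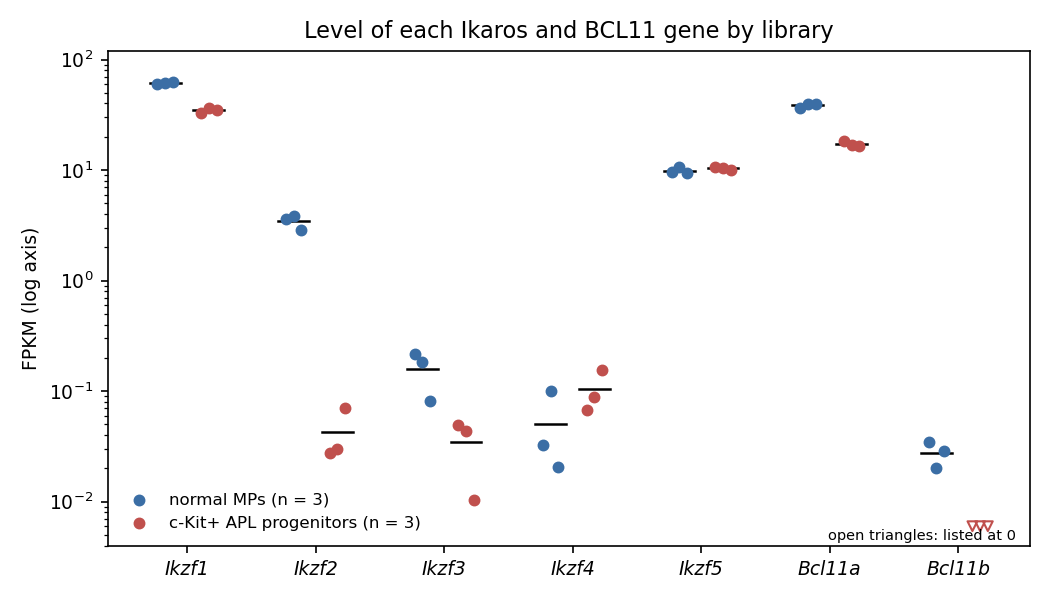
FPKM (log axis) of the 7 genes in each library, as points, with the group mean as a line where no library is at 0. The points of the groups are apart for Ikzf1, Ikzf2, Ikzf3, Bcl11a and Bcl11b, and overlap for Ikzf4 and Ikzf5, and Bcl11b was listed at 0 in the 3 APL libraries (open triangles).

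Ikzf1, the founding member and the most abundant here (gene ID 22778), lies on chromosome 11 of GRCm38 from 11686212 to 11772926. MP libraries 1 to 3 held 8360, 8544 and 8773 scaled fragments of it, and APL libraries 1 to 3 held 4618, 5147 and 4912. The lowest MP library was above the highest APL library, and the spread within each group was small against the gap. Its log2 fold change came to −0.81 ± 0.07 (SE, limma, adjusted p = 1.1e-05), or 1.75-fold lower, and 20.4% of genes tested had a larger decrease. Tested alone, by exact permutation and two-sided, it had p = 0.1, the smallest that 3 libraries against 3 allow. The decrease left Ikzf1 at a level higher than that of 85.5% of genes in the c-Kit+ APL progenitors.

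The genes whose values were nearest to those of Ikzf1 over the 6 libraries, among 10306 genes with a mean of at least 100 scaled fragments, were Cnksr3, Polr1b and Stard7. Their Euclidean distances on the centred log2 scale were 0.0564, 0.0641 and 0.0663, and Pearson's r with Ikzf1 was 0.999, 0.998 and 0.998. In group means, Cnksr3 went from 616 ± 25.6 to 347 ± 17.6 scaled fragments, Polr1b from 3117 ± 73.3 to 1748 ± 89.7 and Stard7 from 3870 ± 146 to 2236 ± 131. The 6 libraries fall into the same 2 groups for every gene, so such correlations describe the group difference and little else.

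Ikzf2, which encodes Helios, a family member known from T cells and early hematopoietic cells, had the largest log2 fold change of the members. The gene (ID 22779) lies on chromosome 1 from 69531209 to 69685960. It had 923, 988 and 710 scaled fragments across MP libraries 1 to 3, against 7.07, 7.80 and 18.5 across APL libraries 1 to 3, which before scaling came from 6, 9 and 15 fragments. MP library 3 was the lowest of its group and APL library 3 the highest of its own, yet the groups stayed far apart. The group means, 874 ± 146 for the normal MPs against 11.1 ± 6.41 for APL (SD, n = 3), were 78.5-fold apart. On the log2 scale this was −6.28 ± 0.33 (SE, limma, adjusted p = 4.3e-07), and 1.15% of genes tested had a larger decrease. The size depended on the scale, with a value of −2.08 on log2(FPKM + 1).

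Ikzf3, which encodes Aiolos, a factor of maturing B cells, was sparse in both groups (gene ID 22780). On chromosome 11 from 98464692 to 98546031, it reached 26.2, 21.9 and 9.92 scaled fragments in the MP libraries and 5.89, 5.20 and 1.23 in the APL libraries, numbered 1 to 3. As with Ikzf2, MP library 3 was the lowest of its group. Its log2 fold change came to −2.05 ± 0.52 (SE, limma, adjusted p = 0.0071). Over each group the unscaled fragments came to 62 and 12, a ratio of APL to MP of 0.222 with a 95% exact interval of 0.109 to 0.416 that covers counting error only. The size depended on the scale, with −1.03 at a pseudocount of 10 and −0.93 on log2(FPKM + 0.1). With quantile normalization the log2 fold change was −1.45 and the call was lost (limma, adjusted p = 0.062).

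Ikzf4, which encodes Eos, a factor known from regulatory T cells, was also sparse (gene ID 22781). On chromosome 10 from 128632414 to 128645993, it reached 2.81, 8.57 and 1.804 scaled fragments in MP libraries 1, 2 and 3, against 5.89, 7.80 and 13.6 in APL libraries 1, 2 and 3. MP library 2 lay among the APL libraries. The log2 fold change of 1.04 had a 95% interval of −0.13 to 2.20 (adjusted p = 0.10 from limma), so no difference was called at this depth. Unscaled fragments came to 14 and 25, a ratio of APL to MP of 2.05 with a counting interval of 1.02 to 4.26. The call turned on MP library 2: without it the log2 fold change was 1.55 (adjusted p = 0.016 from limma), and with quantile normalization it was 1.67 (adjusted p = 0.017).

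Ikzf5, which encodes Pegasus, a member whose DNA binding differs from that of the others, was expressed at a moderate level in both groups (gene ID 67143). On chromosome 7 from 131388648 to 131410478, its scaled fragments were 1098, 1223 and 1055 across the MP libraries and 1207, 1196 and 1192 across the APL libraries. The APL values lay within the range of the MP values. The log2 fold change was 0.09 with a 95% interval of −0.08 to 0.27 (adjusted p = 0.31 from limma), an interval that leaves room for at most a small change in either direction. Its sign was not settled, since it was −0.04 when the libraries were scaled to the same total.

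Bcl11a, the BCL11 factor of B cells, dendritic cells and globin silencing (gene ID 14025), lies on chromosome 11 from 24078055 to 24173558. The MP libraries held 3470, 3717 and 3356 scaled fragments and the APL libraries 2019, 1837 and 1834, with a wide gap between the groups. Its log2 fold change came to −0.89 ± 0.07 (SE, limma, adjusted p = 7.4e-06), or 1.85-fold lower. On log2(FPKM + 0.1) it was larger, −1.16.

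Bcl11b (gene ID 58208), the T cell commitment factor on chromosome 12 from 107910402 to 108003414, was near the limit of detection. MP libraries 1 to 3 held 6.56, 3.81 and 5.41 scaled fragments, which came from 7, 4 and 6 fragments before scaling, and the 3 APL libraries held 0. Set against a limit of 3 fragments per library, below which a gene was treated as not distinguishable from absence, Bcl11b was at least 1.60-fold lower in c-Kit+ APL progenitors. Its fitted log2 fold change depends on the pseudocount and is no bound. It was −0.61 with a pseudocount of 10 and −0.35 on log2(FPKM + 0.1), where the fold change no longer passed 1.5.

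**Figure D2:**
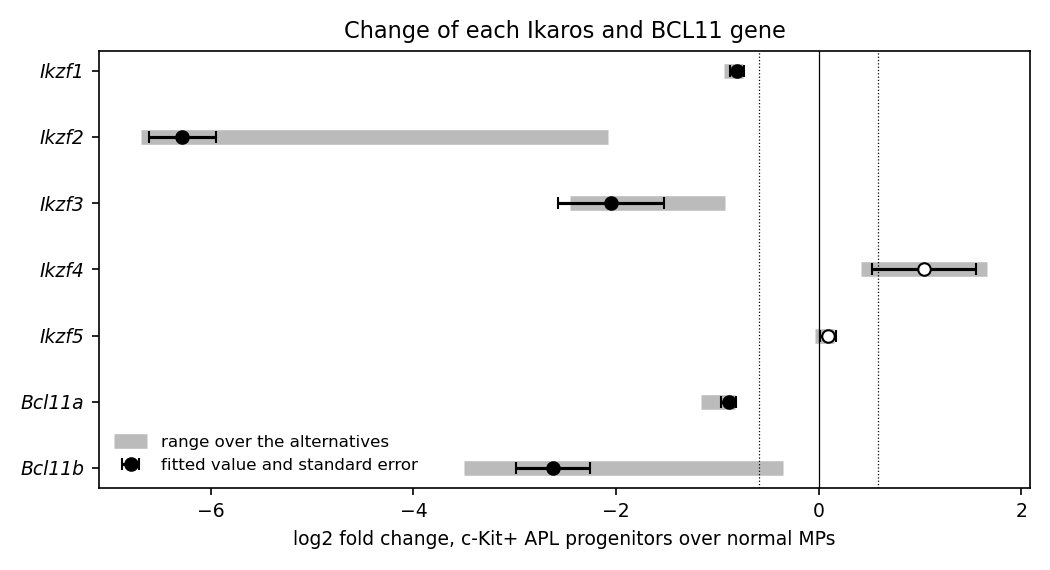
Log2 fold change of the 7 genes with its standard error (points and whiskers) and the range over the alternatives for processing that gave a value (gray bars); filled points were called, open points were not, and dotted lines mark a fold change of 1.5. Ikzf1 and Bcl11a have short bars near −0.81 and −0.89, whereas those of Ikzf2, Ikzf3 and Bcl11b are long.

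Within a library, the change of each member can be set against that of Ikzf1, a difference that, apart from the pseudocount, does not depend on how libraries are scaled. The log2 fold change of Bcl11a differed from that of Ikzf1 by −0.08, within the spread between libraries (two-sided exact permutation test, p = 0.5), and it lay between −0.17 (without APL library 1) and −0.02 (without APL library 2) when 1 library was left out. On log2(FPKM + 0.1) this difference was −0.34, with an adjusted exact permutation p of 0.12. That is the smallest possible p of 0.1 after adjustment, so the groups were fully separated there. Whether Bcl11a fell by as much as Ikzf1 thus depended on the scale. The log2 fold change of Ikzf2 differed from that of Ikzf1 by −5.47 and that of Ikzf5 by 0.90. For both, the libraries of the groups were fully separated, and the exact permutation p was 0.1, the smallest possible (0.15 after Benjamini-Hochberg adjustment over the 6 differences). The design of 3 against 3 cannot take such a single-gene comparison below 0.05.

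As a family, the 5 Ikaros genes summed to 74.9 ± 1.28 FPKM in the MP group against 45.2 ± 1.65 in the APL group, 1.66-fold apart. The make-up of this sum shifted away from Ikzf2 and toward Ikzf5. Ikzf2 held 4.93%, 5.05% and 3.79% of it in MP libraries 1 to 3, falling to 0.0634%, 0.0642% and 0.155% in APL libraries 1 to 3. Ikzf5 held 13.0%, 14.0% and 12.5% in the MP libraries and 24.2%, 22.2% and 22.4% in the APL libraries. Ikzf1 held most of the sum in both groups, 81.9% ± 1.495 of it for the normal MPs against 76.7% ± 1.05 for APL (SD, n = 3). Each of these 3 shares separated the groups completely (two-sided exact permutation test, p = 0.1, or 0.12 after adjustment over the 7 shares tested). On scaled fragments, which do not correct for length, the difference of the Ikzf1 share shrank from −5.25 to −0.92 percentage points (adjusted exact permutation p = 0.6). That of Ikzf2 went from −4.50 to −8.07 points, and that of Ikzf5 from 9.72 to 8.998. Bcl11a held 99.9% ± 0.0221 of the BCL11 sum of the MP group and 100% of that of the APL group.

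**Figure D3:**
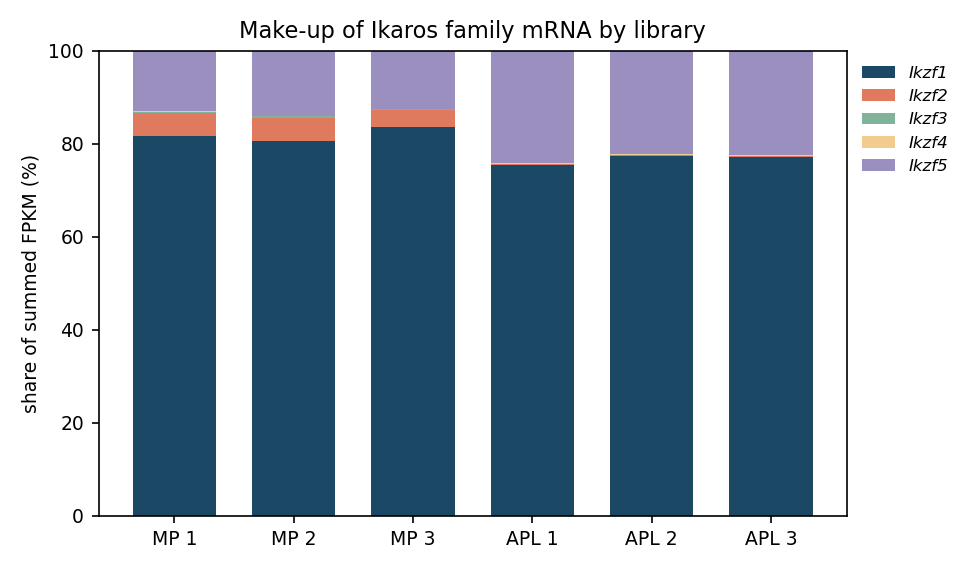
Share of each Ikaros gene in the summed FPKM of the family, in percent, as stacked bars for the 6 libraries. The Ikzf2 band of the MP libraries is almost gone in the APL libraries, and the Ikzf5 band goes from between 12.5% and 14.0% to between 22.2% and 24.2%.

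The scales of Bcl11a diverged. The number of scaled fragments behind 1 FPKM follows the length that the authors' processing gave the gene, and is compared here after setting the median gene of each library to 1. Relative to the median gene it was 1.82, 1.83 and 1.79 in the MP libraries and 1.83, 1.83 and 1.83 in the APL libraries for Ikzf1. For Bcl11a it was 1.25, 1.23 and 1.09 across the MP libraries and 1.45, 1.41 and 1.43 across the APL libraries, with no overlap, a shift of 0.27 on the log2 scale. Among 9268 genes with at least 100 scaled fragments in every library, 0.151% had a larger shift in either direction. MP library 3 was again the farthest from the others. The shifts of Ikzf2 and Ikzf5 were 0.03 and 0.02. Transcripts are not listed separately in the table, so which transcripts of Bcl11a were present was not tested.

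**Figure D4:**
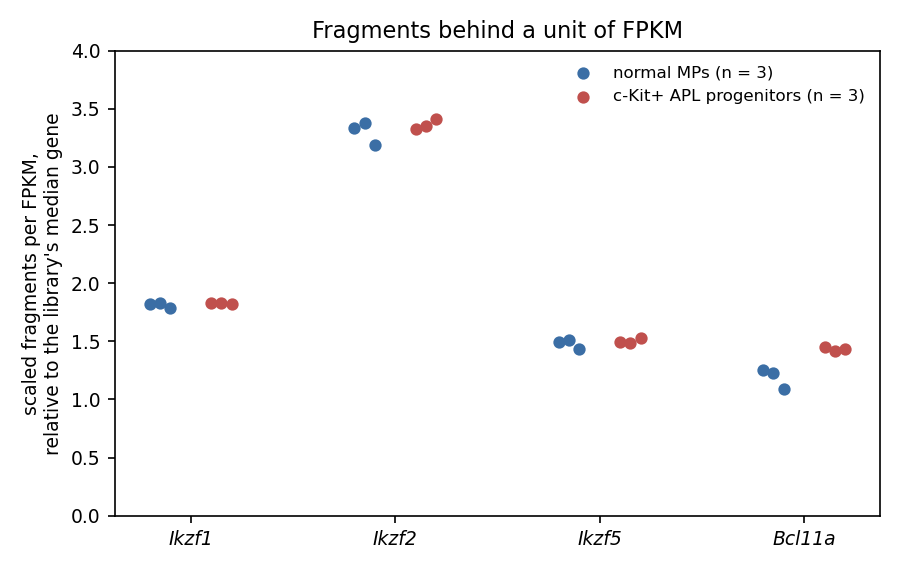
Scaled fragments per FPKM of the 4 members with the highest FPKM in normal MPs, divided by the value of the library's median gene, with 1 point per library. The groups overlap for Ikzf1 and lie apart for Bcl11a, at 1.09 to 1.25 in the MP libraries and 1.41 to 1.45 in the APL libraries.

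Markers of other cell types moved with the groups. The summed scaled fragments of 6 erythroid markers (5 of 5 tested called lower) lay between 39485 and 52978 in the normal MPs and between 193 and 325 in the c-Kit+ APL progenitors. Those of 5 megakaryocyte markers (4 of 5 lower) lay between 2860 and 3820 against 225 to 307, of 6 monocyte and dendritic cell markers (6 of 6 lower) between 4516 and 5762 against 516 to 655, of 3 eosinophil markers (3 of 3 lower) between 3046 and 5786 against 571 to 928, and of 5 mast cell and basophil markers (2 of 4 lower, 1 higher) between 1482 and 2139 against 778 to 980. The 5 granulocyte progenitor markers (3 of 5 higher) summed to between 307335 and 343484 in the normal MPs and 771407 to 923993 in the c-Kit+ APL progenitors. The part of these other cell types in the decreases of Ikzf1, Ikzf2 and Bcl11a was not tested. B cell markers (2 of 3 lower) summed to between 333 and 430 in the normal MPs, nearly all of it Cd79b, and to between 9.43 and 19.1 in the c-Kit+ APL progenitors. T cell markers (none of 2 called) summed to between 83.8 and 151 against 112 to 158, with Cd3e at 0 in all MP libraries and Cd3g at 0 in all APL libraries. Kit, Ly6a and Cd34 were looked up as 3 progenitor surface markers (2 lower, 1 higher). The gates used c-Kit in both groups and Sca-1 in the normal MPs only, and neither names CD34. Kit had a log2 fold change of −0.85 and 5929 ± 132 scaled fragments in c-Kit+ APL progenitors. Ly6a, which encodes Sca-1, was called higher (0.68) but had at most 48.8 scaled fragments in any library. Cd34 went from 6684 ± 1096 to 82.6 ± 8.40 scaled fragments (−6.31 on the log2 scale).

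The counts of partner and lineage genes stand against the 24.4% of all genes tested that were called lower and the 21.7% called higher. All 13 genes listed for the NuRD complex were tested, 5 (38.5%) were called lower and none higher, and their median log2 fold change was −0.37 against −0.10 over all genes tested. Chd3, which encodes 1 of the remodelling ATPases of the complex (Mi-2α), went from 1336 ± 43.1 to 27.1 ± 2.05 scaled fragments, on the log2 scale −5.57 ± 0.12 (SE, limma, adjusted p = 6.7e-09). Its paralog Chd4 (Mi-2β), named after its values were seen, stayed under the fold threshold at −0.34. Chd3 made up 9.10% ± 0.236 of the summed FPKM of Chd3 and Chd4 among the MP libraries and 0.257% ± 0.00966 among the APL libraries (SD, n = 3). Mta1, another subunit, fell with a log2 fold change of −1.05.

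Of 19 tested genes (of 20 listed) of the SWI/SNF (BAF) complex, the ATP-dependent remodeller that BCL11 proteins join, 6 (31.6%) were called lower and 1 (5.26%) higher (median −0.47). Smarca2, which encodes the ATPase BRM, was the one that rose, from 1450 ± 140 to 2977 ± 141 scaled fragments (log2 fold change 1.04), and 1 other gene overlaps its locus. Dpf2 and Bcl7a had −0.92 and −0.77. Of 8 corepressor genes of the CtBP and SIN3 complexes, to which Ikaros also binds, 3 (37.5%) were called higher and 1 (12.5%) lower (median −0.16). Sin3a, the scaffold of the SIN3 deacetylase complex, went from 3322 ± 177 to 25184 ± 670 scaled fragments, a 7.58-fold increase (log2 fold change 2.92, standard error 0.07, adjusted p = 1.1e-08 from limma), and 3.86% of genes tested had a larger increase. Ctbp2 rose with 0.75 and Kdm1a fell with −0.59, close to the fold threshold. Of the 7 genes of the cereblon ubiquitin ligase, through which thalidomide analogs degrade Ikaros and Aiolos, Dda1 was called higher (0.69) and Cul4b lower (−0.68), 14.3% in each direction, with a median of −0.21. Crbn, the substrate receptor itself, was not called (−0.10).

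Early B lineage genes, many of them controlled by Ikaros, moved in opposite directions. Of 17 tested from a list of 20, 10 (58.8%) were called lower and 4 (23.5%) higher, and the median log2 fold change was −1.75. Igll1, which encodes the λ5 chain of the pre-B cell receptor and is a gene that Ikaros silences in B cell development, had 15.9, 27.6 and 9.92 scaled fragments across the MP libraries, against 4567, 5264 and 4873 across the APL libraries. The groups were 275-fold apart (log2 fold change 8.13, standard error 0.29, adjusted p = 5.6e-08 from limma), and 0.226% of genes tested had a larger increase. Vpreb1, its partner chain, lies 4414 bases away on chromosome 16 and rose from 9.96 ± 2.75 to 109 ± 16.2 scaled fragments (3.35), and Vpreb3 rose as well (2.54). These 2 genes were named after their values were seen, and the value of Vpreb1 is uncertain because its near-identical copy Vpreb2 could share its fragments. In contrast, Dntt, the terminal transferase of antigen receptor joining, went from 1421 ± 317 to 15.4 ± 4.07 scaled fragments (−6.44), and the cytokine receptor gene Flt3 from 1894 ± 482 to 31.9 ± 3.43 (−5.83). Rag1 and Blnk, also named after their values were seen, were at 0 in all 3 APL libraries and at least 6.06-fold and 12.8-fold lower there against the limit of 3 fragments per library. Both entered the test only through the normal MPs, and the count of 10 includes them. B cell markers fell with these genes, to sums of at most 19.1 in the APL libraries, and their part in the result was not tested.

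Of 14 tested early T lineage genes from a list of 21, which include targets and partners of Bcl11b, 8 (57.1%) were called lower and 2 (14.3%) higher (median −1.91). Zbtb16, which encodes the PLZF factor of innate-like T cells and of myeloid progenitors, fell from 345 ± 51.6 to 4.02 ± 1.95 scaled fragments (−6.17), and Cd4 from 201 ± 24.2 to 2.56 ± 2.60 (−6.18). The genes that rose were Id2 (1.25) and Notch1 (0.80). Of 7 tested genes of globin switching from a list of 13, the program that BCL11A controls in red cells, 6 (85.7%) were called lower and none higher (median −5.21), with Zfpm1 (−7.62) and Klf1 (−7.57) lowest. The erythroid markers fell with them, to sums of at most 325, and their part in the result was not tested. The embryonic globin genes of the list were not found in the deposited table under the names used. The adult globin genes are near-identical copies whose fragments could be divided among them.

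**Figure D5:**
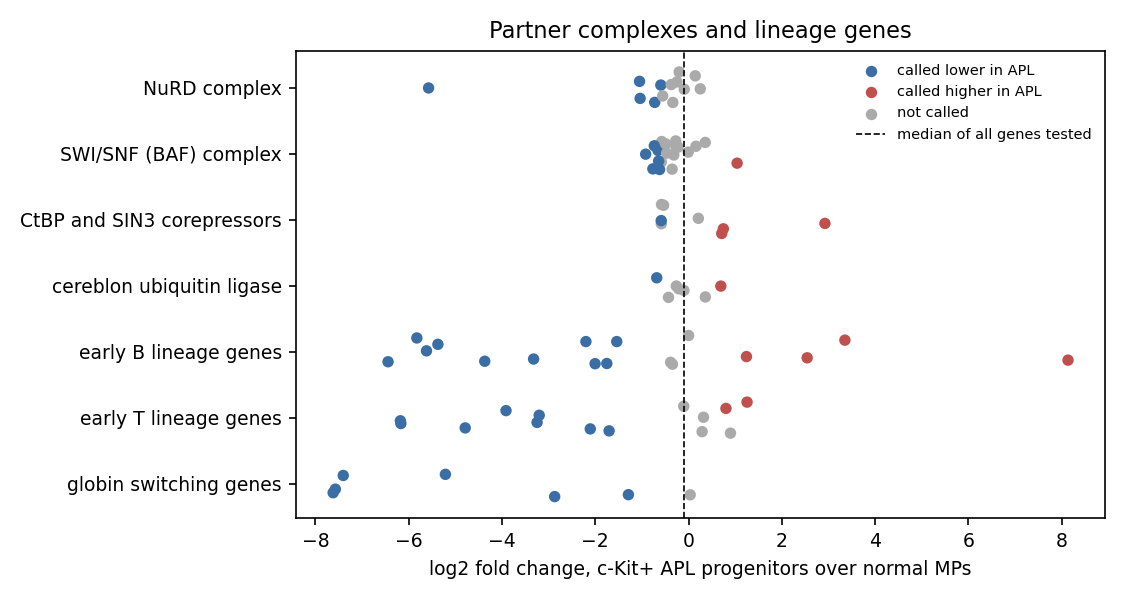
Log2 fold change of each tested gene (points) of 7 lists of partner complexes and lineage genes, colored by call, with the median of all genes tested as a dashed line at −0.10. Chd3 at −5.57 stands apart from the other NuRD genes, Sin3a at 2.92 from the other corepressors, and Igll1 at 8.13 from the other B lineage genes.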

How the data were processed

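Total RNA of 6 sorted samples was sequenced from TruSeq libraries. The authors deposited 1 table for the series, whose FPKM columns correct for transcript length and for mapped fragments. Its other columns, as deposited by the authors, hold a fragment signal: estimated fragments times a library factor. Between 89.3% and 90.2% of the low values were whole multiples of a step (within 0.01 of a step, up to 20 steps), the others fractions, so no count test was used. The submitters' processing notes name CASAVA 1.8, TopHat2 2.0.6 and mm10, whereas the paper's methods name STAR on mm9, HTSeq-count and DESeq2. The tool that made the table is not given in the sources used here. Loci are printed as in the table, on GRCm38 (mm10).

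Differential expression was fitted across all 14595 genes with limma 3.58.1 (lmFit, eBayes with a trend) in R 4.3.3, on log2(scaled fragments + 1), with Benjamini-Hochberg adjustment. Before use, the fit was run on simulated data in which only genes that were not sparse were changed. That run did not cover changes of sparse members such as Ikzf3, Ikzf4 and Bcl11b. The study's thresholds (P of 0.05, fold change of 1.5) were kept, the first of them applied here to adjusted p-values. Shares and differences between members used two-sided exact permutation tests (SciPy 1.17.1). The members, lists and tests were chosen with earlier results of these data known. Genes named from the lists were the 2 largest increases and 2 largest decreases called with a mean of at least 100 scaled fragments, apart from those said to be named after their values were seen and Crbn, Kit and Ly6a, whose levels check the ligase and the sort. A gene that this rule names is not reported here. Alternatives covered the pseudocount, filter, scale, scaling, trend, fold threshold, the library number as a block, and each library left out.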

Additional observations from a re-analysis of the deposited data

How the results depend on the processing

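The members' log2 fold changes were recomputed under 11 alternatives and with each of the 6 libraries left out. Ikzf1 (−0.94 to −0.75) and Bcl11a (−1.16 to −0.83) kept their direction and call under all 17, which hold the fold threshold at 1.5, and Ikzf2 under the 16 that gave a value (−6.68 to −2.08). Ikzf2, Ikzf3, Ikzf4 and Bcl11b had no value with at least 10 scaled fragments in all 6 libraries, and the last 3 none on log2(FPKM + 1). Ikzf3 lost its call with quantile normalization (−1.45), which gave Ikzf4 one (1.67). Bcl11b lost its call on log2(FPKM + 0.1) (−0.35), where its difference from Ikzf1 turned to 0.47 and that of Bcl11a went from −0.08 to −0.34. Ikzf5 turned to −0.0369 with the libraries scaled to the same total, which moved the median of all genes from −0.10 to −0.23. With 1 library left out, the ranges were 0.67 to 1.55 for Ikzf4, 3325 to 3586 for genes called lower, and 1 to 2 for CtBP and SIN3 genes called lower, whose count of 1 became 2 without MP library 1, 2 or 3 or APL library 2 or 3. Members called higher ranged from 0 to 1, the 1 being Ikzf4 without MP library 2.

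Counts moved by over 1.5 times as follows, and the cause was not tested except that stricter filters and thresholds leave fewer genes to call. With at least 10 scaled fragments in all libraries, 11002 genes were tested against 14595, and 2041 were called lower against 3558. The lower counts were 2 for the members, 2 for B lineage, 2 for T lineage and 3 for globin switching genes, with 1 B lineage gene higher. Of the members only Ikzf1, Ikzf5 and Bcl11a were tested there, and none of these changed its call. On log2(FPKM + 1), 11131 genes were tested and 1980 were called lower, with 3 members, 3 B lineage genes, 4 T lineage genes and 0 CtBP and SIN3 genes. Ikzf1, Ikzf2, Ikzf5 and Bcl11a were the members tested on that scale, and none of these changed its call. With a fold change over 2, 3 members (Ikzf1 and Bcl11a being those lost), 3 NuRD, 0 BAF, 0 CtBP and SIN3 and 0 ligase genes were lower, and 1 CtBP and SIN3, 0 ligase and 1 T lineage gene higher. With the same total, 10 BAF and 4 CtBP and SIN3 genes were lower and 0 ligase genes higher. With quantile normalization, 3 CtBP and SIN3 genes were lower and 4 T lineage genes and 1 member higher. With a pseudocount of 10 or median ratio scaling, 0 CtBP and SIN3 genes were lower.

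In a fit with a replicate block for the number of the library, 3589 genes were called lower and 3164 higher, and no member changed its call. Same-numbered libraries deviated from their group means with correlations of 0.261, −0.133 and 0.255 over 11002 genes. Those of differently numbered libraries ran from −0.458 (MP 3 with APL 1) to 0.357 (MP 2 with APL 1). The same-numbered values lay within that range, so the numbers were not taken to pair the samples.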
